A study of Mus musculus with 9 samples.

Results

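The genes described here code for the 4 classical families of axon guidance signals and their receptors: semaphorins and plexins, ephrins and Eph receptors, Slits and Robos, and netrins with Dcc and the Unc5 receptors. They were chosen by gene symbol among autosomal protein-coding genes, using Slit1 to Slit3, Dcc and every symbol that begins with Sema, Plxn, Epha, Ephb, Efna, Efnb, Robo, Ntn or Unc5. That rule took 68 of 20665 genes. Unc50 shares the letters of the rule but is not an Unc5 receptor and was set aside, which left 67 genes, 36 ligands and 30 receptors, with Unc5cl, related to Unc5c by sequence, given no role. Whole-genome bisulfite sequencing gave the CpG methylation of nucleus accumbens DNA from male C57BL/6J mice aged 8 weeks, in 5 libraries labelled Control (numbered 2, 3, 4, 5 and 8) and 4 labelled Susceptible (numbered 2, 3, 6 and 7). All 9 carry the same treatment text, 10 daily defeats by a CD1 aggressor, so what the Control mice underwent is not given in the sources used here, nor is how susceptibility was scored. The nucleus accumbens is part of the ventral striatum. Punches hold many cell types, so a middle methylation level can come from a mixture of cells or from a mixture within cells, and these cannot be told apart.

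Guidance cues steer growing axons by attraction or repulsion, and in the adult brain several of them act on dendritic spines and synapses. Semaphorins are secreted or membrane-bound and signal through plexins, the secreted class 3 members mostly with a neuropilin co-receptor. Ephrins are anchored in the membrane and activate Eph receptor tyrosine kinases on the neighbouring cell. Secreted Slits repel through Robo receptors, and netrins attract through Dcc or repel through Unc5 receptors. Netrin-G1 and netrin-G2 (Ntng1, Ntng2) belong to the netrin family by sequence but are lipid-anchored and bind synaptic adhesion molecules. CpG-rich gene starts are usually unmethylated, whereas CpGs within gene bodies are usually methylated.

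A pair of regions was read in each gene: a start window, 1000 bp to each side of the outer end of the RefSeq gene on its 5′ side, and the gene body between its outer ends. The level of a region is the share of calls read as methylated, over all listed CpGs in it. The promoter table gave the strand of 57 genes. For the other 10 (Plxna1, Plxna4, Unc5d, Dcc, Sema3b, Sema3f, Sema6a, Ntn1, Efnb3 and Slit1) the gene end with more CpGs stood in for the start, which is the start in 80.5% of the genes with a strand. A region was used where every library had 3 or more CpGs and 20 or more calls in it, which held for 67 bodies and 66 start windows. Epha6 did not meet this at its start. Over the 9 libraries, 313475624 to 570984634 calls were listed, and the autosomal level was 74.5 to 77.1%. The start windows of the guidance genes together held 110328 to 220359 calls per library, and their bodies 1723179 to 3160790.

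Most guidance genes had an unmethylated start. The start window averaged under 10% over the 9 libraries in 39 of 66 genes (59.1%) and 20% or more in 17 (25.8%), with a median of 8.57%. Over 18709 autosomal protein-coding genes these shares were 49.3 and 40.2%, and the median was 10.4%. Of the 17, 4 (Sema3b, Sema6a, Efnb3 and Slit1) are among the genes without a strand, so their windows may lie at the other end. Some of the 17 windows also touch another gene: Ccdc51 at Plxnb1, Dennd6b at Plxnb2, Wrap53 at Efnb3, Sec1 at Ntn5 and Lsmem2 at Sema3b. The level followed the number of CpGs, with a Spearman rho of -0.847 across 66 guidance genes and -0.826 across 18709 genes, where neighbouring genes and shared libraries make the points dependent. All 24 guidance genes with 100 or more CpGs in the window were between 0.812 and 9.93%. At a matched number of CpGs, guidance genes were above the median of all genes where CpGs were many and below it where they were few. The medians were 3.23 against 2.56% with 100 or more CpGs, 9.14 against 6.0% with 60 to 99 and 23.9 against 17.7% with 40 to 59. They were 61.6 against 81.2% with 20 to 39 CpGs (11 guidance genes) and 63.1 against 84.6% with 19 or fewer (4 genes). The 4 genes with fewer than 20 CpGs there, Ntng1, Slit2, Unc5a and Sema3a, were between 55.6 and 83.4%.

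Promoter sequences show the contrast between the ends of this range. Each is the 300 bases from 250 before to 50 after a start in the RefSeq promoter table (GRCm38.p6), printed 5′ to 3′ on the gene's strand, with every CG in capitals. The lowest start levels with an entry belonged to Epha7, an Eph receptor for the A-type ephrins (chr4:28812881-28813180, plus strand), and Plxna2, a plexin that binds membrane-bound semaphorins (chr1:194619579-194619878, plus strand). The highest belonged to Unc5cl (chr17:48454651-48454950, plus strand) and to Sema4c, a membrane-bound semaphorin that signals through plexin-B2 (chr1:36558332-36558631, minus strand).
Epha7: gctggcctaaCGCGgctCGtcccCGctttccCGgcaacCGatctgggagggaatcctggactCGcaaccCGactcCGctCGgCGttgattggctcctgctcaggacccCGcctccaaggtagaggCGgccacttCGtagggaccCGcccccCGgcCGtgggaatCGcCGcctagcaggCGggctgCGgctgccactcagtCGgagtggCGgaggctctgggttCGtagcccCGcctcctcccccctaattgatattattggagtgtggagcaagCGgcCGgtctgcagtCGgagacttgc
Plxna2: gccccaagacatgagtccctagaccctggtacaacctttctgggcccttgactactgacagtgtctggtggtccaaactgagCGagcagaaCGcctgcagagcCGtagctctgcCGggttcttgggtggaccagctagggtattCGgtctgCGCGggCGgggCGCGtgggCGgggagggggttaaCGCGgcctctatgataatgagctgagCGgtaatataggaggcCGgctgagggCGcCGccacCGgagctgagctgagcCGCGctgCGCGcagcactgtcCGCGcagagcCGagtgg
Unc5cl: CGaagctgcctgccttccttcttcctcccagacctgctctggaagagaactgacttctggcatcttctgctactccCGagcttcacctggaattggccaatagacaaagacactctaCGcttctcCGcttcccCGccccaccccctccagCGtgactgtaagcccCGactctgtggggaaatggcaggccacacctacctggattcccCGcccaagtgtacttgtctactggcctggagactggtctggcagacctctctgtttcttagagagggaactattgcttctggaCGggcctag
Sema4c: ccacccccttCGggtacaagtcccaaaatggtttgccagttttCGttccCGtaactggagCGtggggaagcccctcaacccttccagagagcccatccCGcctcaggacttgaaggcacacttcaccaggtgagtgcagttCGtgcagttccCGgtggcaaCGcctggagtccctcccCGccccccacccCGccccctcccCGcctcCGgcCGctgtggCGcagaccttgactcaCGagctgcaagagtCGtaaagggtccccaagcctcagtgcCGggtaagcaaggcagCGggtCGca
The Epha7 sequence holds 28 CGs and read 1.02% over the 9 libraries (range 0 to 2.30%), and the Plxna2 sequence holds 25 and read 0.648%. The Unc5cl sequence holds 9 CGs and read 77.5% (range 65.5 to 87.8%). The Sema4c sequence behaved unlike the Sema4c start window: it holds 19 CGs and read 1.95% (range 0 to 4.86%), while the window around the outer gene end, 2318 bp upstream of this start, read 88.9%. The 73 promoter entries of guidance genes held a median of 20 CGs, against 14 over 20085 entries of autosomal protein-coding genes.

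Among the ligands, semaphorins ranged from 1.57% at the start of Sema5b to 88.9% at Sema4c. Sema5b, a membrane-bound semaphorin, read between 0.0905 and 2.12% in the 9 libraries. Sema4c read between 83.0 and 93.0%. Of the 20 semaphorins, 11 were under 10% and 6 were at 20% or more: Sema4c, Sema3b (85.9%), Sema3g (61.6%), Sema3a (55.6%), Sema4a (55.5%) and Sema6a (25.6%). Sema3b and Sema6a have no strand, so the window read in them may lie at the other gene end. Sema3a is a secreted repellent that acts through neuropilin-1 and A-type plexins, and Sema3g is a secreted semaphorin known from blood vessels.

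The ephrins stayed lower, from 1.21% at Efna5 to 27.6% at Efnb3, the midline ephrin-B3. Efna5 read between 0.450 and 1.91% and Efnb2 between 0.861 and 1.51% in the 9 libraries. The 3 Slits differed widely, with Slit3 at 2.19%, Slit2 at 69.7% and Slit1 at 88.3%. The netrin family split in the same manner: Ntn1, the founding secreted netrin, read 3.22%, Ntn4 4.59% and Ntn3 15.1%, while Ntn5 read 75.6%, Ntng2 82.6% and Ntng1 83.4%.

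Receptor starts were lower in the median, 5.34% against 10.8% in ligands. Their quartiles lay closer together, at 2.31 and 12.6% against 5.45 and 55.5%. The full range was nearly as wide, 0.812 to 81.7% against 1.21 to 88.9%. All 13 Eph receptors that could be measured were under 20%, from 0.812% at Epha7 to 18.1% at Epha5. Of 7 plexins, 5 were under 10%, and Plxnb1 (61.1%), the receptor of Sema4d, and Plxnb2 (23.9%) were the exceptions. The windows of both also touch another gene, Ccdc51 at Plxnb1 and Dennd6b at Plxnb2. Robo1 read 6.22%, Robo3 12.6% and Robo2 17.1%, whereas Robo4, the Robo of blood vessels, read 81.7% (range 69.4 to 91.5%). Dcc read 4.87% and Unc5c 1.95%, and among the receptors of netrin only Unc5a (56.4%) was at 20% or more.

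**Figure D1:**
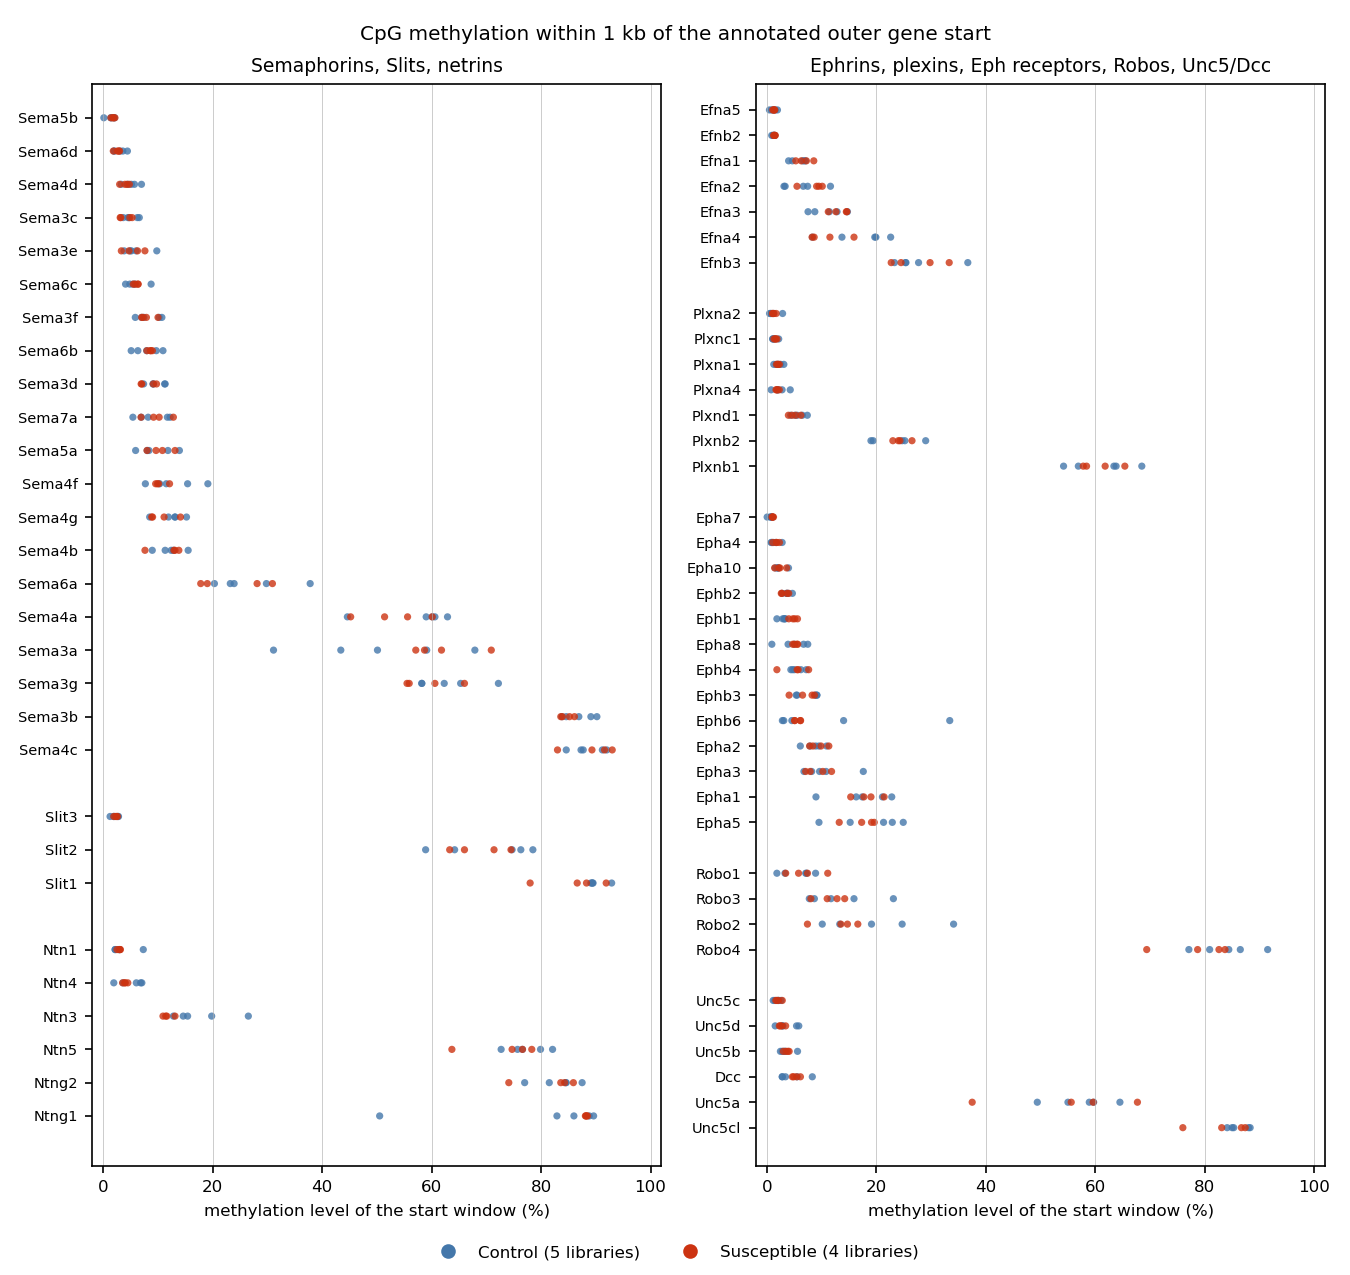
Methylation level (%, horizontal axis) of the start window of 66 guidance genes, 1 point per library, blue for the 5 Control and red for the 4 Susceptible libraries, by family. Most genes lie under 20%, and 17 lie at 20% or more, Sema4c highest at 88.9%.

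With the calls of each family added up, the start levels fell in the order Slits (36.1% ± 4.82, SD over 9 libraries), Robos (24.9% ± 4.19), netrins (24.0% ± 4.98), semaphorins (13.5% ± 0.870), ephrins (6.10% ± 0.751), Eph receptors (5.60% ± 0.373), plexins (5.42% ± 0.275) and the 5 genes Unc5a to Unc5d and Dcc (4.53% ± 0.700). Unc5cl, which has no role and read 84.9%, is not in that last sum; with it the sum was 12.5% ± 1.70. Slits were highest in 9 of 9 libraries, but that place rests on Slit1, 1 of the genes without a strand: Slit2 and Slit3 alone summed to 7.89%, below Robos. Without the genes that have no strand, other places changed too: netrins read 34.3%, above Robos, plexins 8.03%, above Eph receptors, and ephrins 4.61%, below Eph receptors. Several neighbours did not separate: Robos exceeded netrins in 7 of 9 libraries by 0.874 points on average, ephrins exceeded Eph receptors in 7, Eph receptors exceeded plexins in 7, and plexins exceeded Unc5 and Dcc in 7. Small families rest on few genes, with 3 Slits and 4 Robos. The median number of CpGs in the window was 46 in Slits, 31.5 in Robos, 56.5 in netrins and 76.5 in semaphorins. It was 94 in ephrins, 92.5 in Eph receptors, 133 in plexins and 121 in Unc5 and Dcc without Unc5cl. The order was not adjusted for the number of CpGs.

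In gene bodies the order changed. Robos were highest (81.4% ± 0.864), followed by Slits (79.5% ± 1.30), Unc5 and Dcc (78.8% ± 1.31 without Unc5cl, 79.3% with it), Eph receptors (75.9% ± 0.562), netrins (74.3% ± 1.08), semaphorins (73.7% ± 1.31) and plexins (73.4% ± 1.09). Ephrin bodies were lowest in 9 of 9 libraries, at 63.0% ± 0.527. A body includes the inner side of the start window, which takes a larger share of short genes, and family sums without it are not given. Over 1500 bp from the start, the lowest tested tile read 62.1% in Efna1 and 70.5% in Efna4. It read 2.16% in Efna3, 11.9% in Efnb3, 1.92% in Efnb2, 16.7% in Efna2 and 21.2% in Efna5. Some neighbours did not separate: Slits exceeded Unc5 and Dcc (without Unc5cl) by 0.662 points on average, in 7 of 9 libraries. Netrins exceeded semaphorins by 0.587 points in 7, and semaphorins exceeded plexins by 0.292 points in 6. The body of Efna3 read 15.5%, that of Ntn3 24.4%, Efnb3 33.0% and Efnb2 40.1%. At the other end, Sema3g read 89.2%, Sema3c 85.6%, Unc5cl 84.3% and Unc5d 84.1%. Body level rose with gene length across the 67 genes (Spearman rho 0.547; 0.183 across 19329 genes): the 18 guidance genes under 20 kb had a median of 62.5% and the 19 of 200 kb or more a median of 80.8%. The corresponding medians over all genes were 65.9 and 81.2%. Ephrin genes were the shortest family, with a median length of 9.22 kb, and Robos the longest, at 519 kb. Start and body level were unrelated in rank across the 66 guidance genes (rho 0.0130), while over 18439 genes rho was 0.540.

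**Figure D2:**
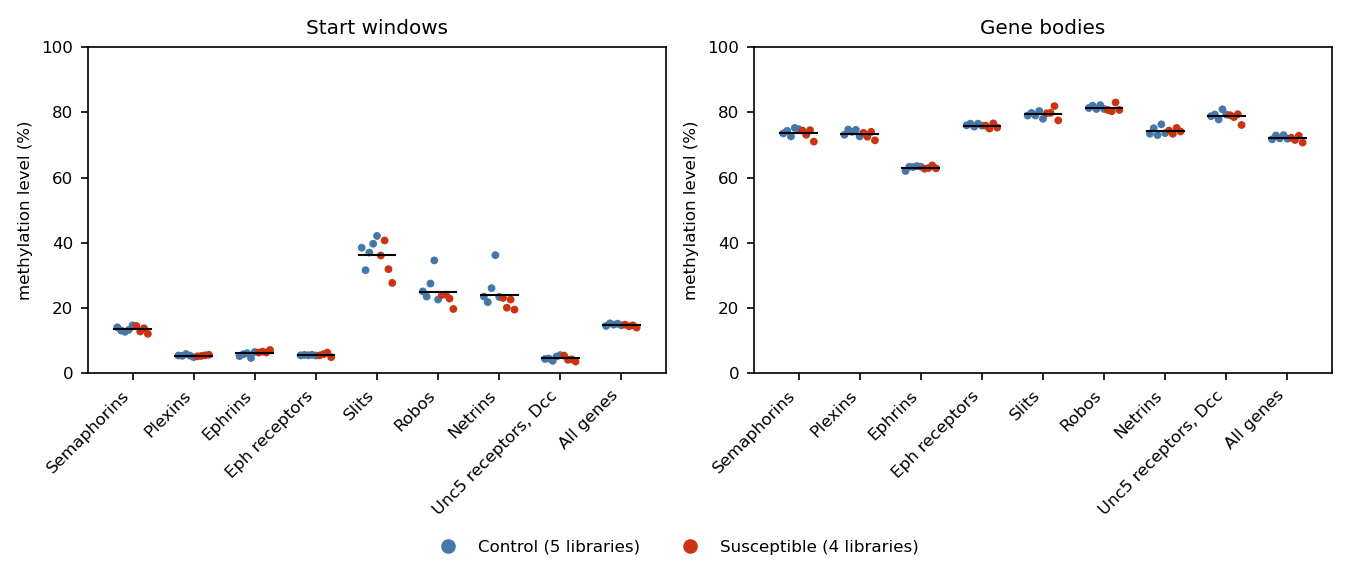
Summed methylation level (%, vertical axis) of each family and of all autosomal protein-coding genes, 1 point per library, with the mean of 9 as a line, for start windows and gene bodies. Slits lie highest at the start (36.1%; 7.89% without Slit1), and ephrins lie lowest in the body (63.0%). Bodies include the inner side of the start window. Unc5cl is not in the sum of Unc5 receptors and Dcc.

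Ligand starts were more methylated than receptor starts. Ligand windows held fewer CpGs, a median of 80 against 92.5 in receptors, and the levels were not adjusted for this. The summed level was 14.4% ± 0.894 for 36 ligands and 6.09% ± 0.277 for receptors, a difference of 8.28 ± 0.784 points (SD over 9 libraries, range 7.39 to 9.79) with ligands higher in 9 of 9 libraries. Without the 10 genes that have no strand the difference was 5.06 ± 0.486 points, also in 9 of 9. Of the ligands, 12 of 36 were at 20% or more, against 4 of 29 receptors. Of these, 4 ligands and 0 receptors have no strand. By ligand and receptor pair, semaphorins exceeded plexins by 8.05 points, Slits exceeded Robos by 11.2 points and netrins exceeded Unc5 and Dcc by 19.5 points (11.5 with Unc5cl among the latter), each in 9 of 9 libraries. The netrin sum, here and in bodies, includes Ntng1 and Ntng2, which bind synaptic adhesion molecules and are counted among the 36 ligands. Their starts read 83.4 and 82.6%, against 3.22% in Ntn1, 4.59% in Ntn4, 15.1% in Ntn3 and 75.6% in Ntn5. The pair without them is not given. Ephrins differed from Eph receptors by 0.505 points (range -0.992 to 2.21). Without the genes that have no strand, the pairs differed by 3.63 points for semaphorins and plexins (ligands higher in 9 of 9 libraries), 29.4 for netrins with Unc5 (9 of 9), -17 for Slits and Robos (0 of 9) and -0.989 for ephrins and Eph receptors (0 of 9), so the last 2 pairs turned. In gene bodies the sign turned: ligands read 74.2% and receptors 76.9%, a difference of -2.68 ± 0.424 points with ligands lower in 9 of 9 libraries. The pairs were unequal there: ephrins lay below Eph receptors (-12.9 points), netrins below Unc5 and Dcc (-4.51 points) and Slits below Robos (-1.90 points) in 9 of 9 libraries, while semaphorins exceeded plexins by 0.292 points on average, in 6 of 9. These bodies include the inner side of the start window. Without it the ligand to receptor difference was -2.63 points, and the pairs are not given. The difference between the roles was 8.60 ± 0.868 points in Control and 7.87 ± 0.488 in Susceptible libraries at the start, and -2.91 ± 0.302 and -2.40 ± 0.406 in the body. With each gene weighted equally the difference was 12.2 points at the start and -6.14 in the body.

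**Figure D3:**
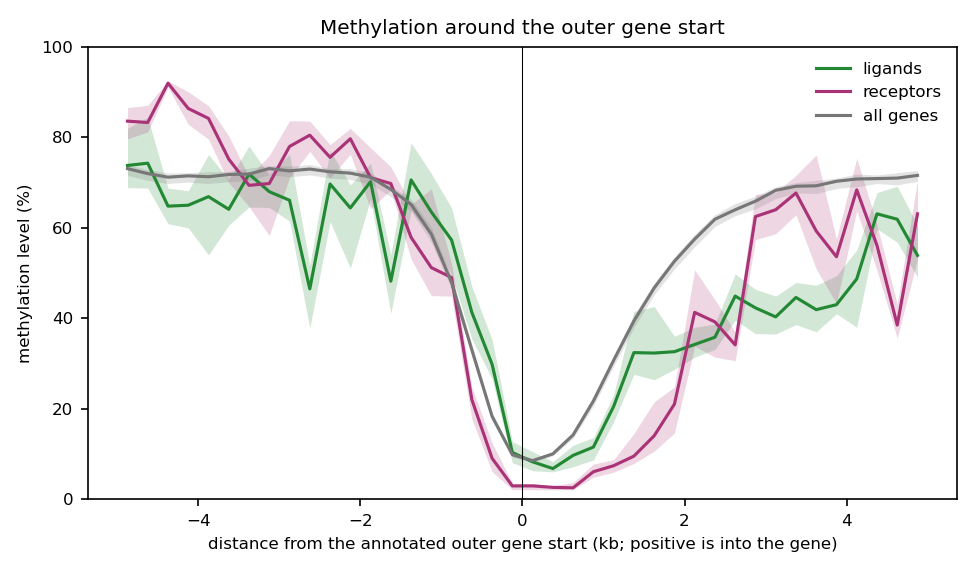
Methylation level (%, vertical axis) by distance from the outer gene start (kb, horizontal axis, 250-bp bins) for ligands, receptors and all autosomal protein-coding genes. Lines are means and bands the range of 9 libraries. Ligands and receptors dip at the start, receptors lower and wider than ligands.

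A methylated start window did not mean that a gene lacked an unmethylated CpG-rich stretch. Among the 1-kb tiles that each gene touches with 1000 bp to either side, the lowest read under 10% in 61 of 67 guidance genes (91.0%), against 12860 of 19207 genes (67.0%). The guidance genes are longer than other genes (median 60.9 kb against 17.5 kb) and so offer more tiles, which was not adjusted for. The tile is the lowest by choice, so these are descriptions. It lay over 1500 bp from the outer start in 24 of 67 genes. By this measure ligands and receptors were close, with medians of 1.46 and 1.39%, under 10% in 32 of 36 and 29 of 30.

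Of the 17 genes at 20% or more, 11 held such a tile under 10%. Slit1 read 88.3% at its outer end and 2.03% in the tile 3.77 kb inside (range 0.0551 to 3.18%). Slit2 read 69.7% and, 2.21 kb inside, 1.67%. In the netrin-G genes the distance was longer: Ntng1 read 1.44% at 6.47 kb, and Ntng2 4.27% at 53.6 kb, which is at its other end. Sema3a read 1.07% in a tile 275 kb inside the gene. Among receptors, Plxnb1 read 0.978% at 1.65 kb, Unc5a 1.11% at 4.35 kb and Plxnb2 1.45% at 1.52 kb. Sema6a, with 0.793% at 1.70 kb, and Sema4c, with 1.10% at 3.20 kb, were membrane-bound semaphorins, and Efnb3 read 4.22% at 0.649 kb. Sema4a fell between, at 11.7% in its lowest tile. In 5 genes none of the tiles that met the minimum was under 20%: Unc5cl (31.2%), Sema3b (44.6%), Robo4 (49.7%), Ntn5 (51.0%) and Sema3g (59.9%).

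**Figure D4:**
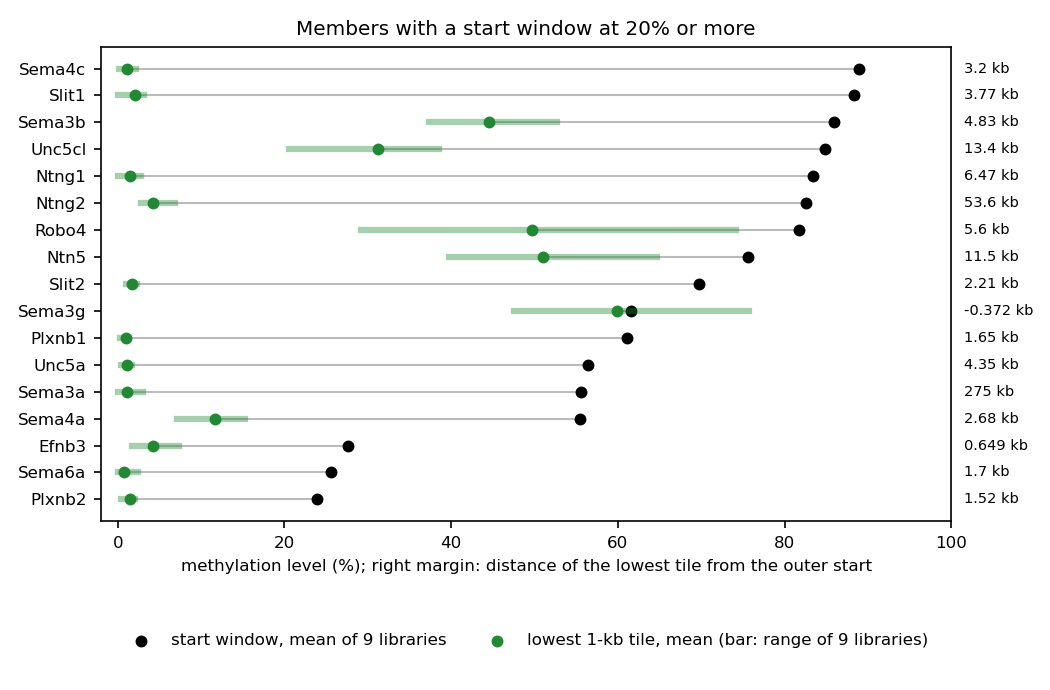
For the 17 guidance genes with a start window at 20% or more, the level of that window (black) and of the lowest 1-kb tile of the gene (green, bar for the range of 9 libraries), in % on the horizontal axis, with the distance between them at the right. The lowest tile is under 10% in 11 genes and at 20% or more in 5.

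The annotated starts of the RefSeq promoter table are not chosen by level. The table lists 73 starts for 57 of the 67 genes, 12 genes with several, and the entry listed first lay more than 1000 bp from the outer end in 11. In windows of 1000 bp to each side of that entry, 42 of 57 genes were under 10% (73.7%, against 49.1% of 16244 genes) and 8 at 20% or more (14%, against 42.0%). Unc5a read 2.09% there, Plxnb1 3.44%, Slit2 3.33%, Ntng1 2.25% and Sema4c 8.31%. Epha6, which could not be measured at its outer end, read 1.77% at a start 5.38 kb inside. Ligand starts still held more of the high values, 6 of 30 against 1 of 26 receptors, and their medians were 7.79 and 3.57%. The annotation could also point the other way: Sema4d, the ligand of plexin-B1, read 4.62% at its outer end but 58.1 to 93.0% at the 3 starts listed, 37.0 to 54.2 kb inside.

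In 7 of the 12 genes with several listed starts, the lowest and highest differed by 10 points or more, and in 5 by less, down to 0.978 and 0.983% in Epha7. Robo2, at 1560 kb the longest of the set, read 17.4% at the outermost listed start, 21.2% at a start 355 kb inside and 1.21% at a start 1040 kb inside. Sema6d read 2.76% at its outer start and 89.5% at a start 564 kb inside. Sema4a read 55.5% at its outer start, 14.1 and 14.7% at 2 inner starts and 81.6% at the innermost. Sema4b was low at both of its starts, 12 and 3.69%.

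Control and Susceptible libraries were compared over all autosomal genes with a quasi-binomial model. No gene was called at an adjusted p under 0.05 at the start, among 18709 tested, or in the body, among 19329, and the smallest adjusted p among guidance genes was 0.927 at the start and 0.974 in the body (quasi-binomial F test with Benjamini-Hochberg adjustment). With limma on logit levels, 0 genes were called as well. Before adjustment, 3 of 66 guidance genes had p under 0.05 at the start (4.55%), where 4.90% of all genes passed, and 1 of 67 in the body (1.49%), where 4.98% passed. With limma these counts were 2 and 0, where 4.11% of all starts and 4.39% of all bodies passed. The groups did not overlap in 1 of 66 starts, where 2.0% of all genes did not overlap, and in 0 of 67 bodies, where 1.59% did not. These shares are near or under the background. Summed over all guidance genes, starts read 11.3% ± 0.428 in Control libraries (SD, n = 5) and 10.7% ± 0.609 in Susceptible ones (SD, n = 4). Bodies read 75.9% ± 0.711 in the former and 75.4% ± 1.11 in the latter. Over all autosomal protein-coding genes the summed differences were -0.431 points at the start and -0.488 in the body. Single libraries and the choice of CpGs moved the guidance differences: the start difference of -0.588 points was -0.305 without Susceptible 7 and -0.278 without Control 5 and Control 8, and the body difference of -0.504 points was -0.0632 without Susceptible 7, -0.258 without Control 5 and -0.930 without Susceptible 6. Over CpGs listed in all 9 libraries they were -0.282 and -0.139 points, with genes weighted equally the start difference was -0.343, and without the start window the body difference was -0.287. The groups overlapped in each family and each role, at start and in the body. The median difference, Susceptible minus Control, was -0.388 points over the guidance starts and -0.0576 over all starts, and -0.422 and -0.418 points over bodies.

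The gene without overlap was Ephb1, a receptor for B-type ephrins (chr9:101922128-102354693). Its start window read 3.36, 3.13, 3.22, 2.87 and 1.81% in the Control libraries (2, 3, 4, 5 and 8, in that order), against 4.72, 5.57, 5.06 and 3.98% in the Susceptible libraries (2, 3, 6 and 7). The lowest Susceptible value exceeded the highest Control value, and 2718 to 4409 calls stood behind each. The difference was 1.96 points (2.88% ± 0.622 against 4.83% ± 0.668, unadjusted p = 0.00358, adjusted p = 0.927). Leaving out each library in turn gave an unadjusted p between 0.00299 and 0.0148. Over the CpGs that every library lists, the unadjusted p was 0.112. It was 0.0760 in the limma fit with a replicate block, whose group term rests only on libraries 2 and 3 of each group. The 300 bases at its start (chr9:102354644-102354943, minus strand) hold 14 CGs and read 2.11%.
Ephb1: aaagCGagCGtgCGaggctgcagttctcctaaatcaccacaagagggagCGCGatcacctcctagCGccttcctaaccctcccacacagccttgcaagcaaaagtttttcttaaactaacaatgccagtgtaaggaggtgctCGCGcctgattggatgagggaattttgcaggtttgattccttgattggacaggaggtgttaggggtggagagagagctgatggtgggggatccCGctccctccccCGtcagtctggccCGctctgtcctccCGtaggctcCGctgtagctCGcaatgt

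The start of Ntn3, a short secreted netrin gene (chr17:24203831-24209387), was lower in Susceptible libraries. It read 14.6, 15.4, 12.8, 26.5 and 19.8% in the 5 Control libraries and 13.1, 11.4, 11.6 and 10.9% in the 4 Susceptible ones. Control 4 fell below Susceptible 2, so the groups overlapped, and Control 5 and Control 8 were highest. The difference was -6.05 points (unadjusted p = 0.0146, adjusted p = 0.927), and -3.88 points without Control 5. The unadjusted p was 0.0547 with no moderation of the dispersion, 0.216 with windows of 500 bp and 0.210 with windows of 2000 bp. It was 0.336 in the limma fit with a replicate block, whose group term rests only on libraries 2 and 3 of each group. Over CpGs listed in all 9 libraries it was 0.00602, and with each library left out in turn it lay between 0.00519 and 0.0334. Efna4, an A-type ephrin (chr3:89333393-89338028), read 8.31, 22.6, 13.7, 19.9 and 19.7% in Control and 8.24, 8.62, 15.9 and 11.5% in Susceptible libraries, a difference of -5.80 points (unadjusted p = 0.0387, adjusted p = 0.927). Its groups overlapped widely, and the unadjusted p stayed under 0.05 in 4 of 9 fits that left out 1 library. It was 0.424 over CpGs listed in all 9 libraries and 0.107 with limma on logit levels. In the body, Plxnb2, the receptor of Sema4c (chr15:89155546-89182018), read 63.9, 66.8, 68.8, 70.4 and 69.3% in Control and 64.2, 64.8, 65.8 and 65.5% in Susceptible libraries. That is a difference of -2.76 points (unadjusted p = 0.0409, adjusted p = 0.974), under 0.05 in 3 of 9 fits that left out 1 library.

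The largest differences of group means belonged to windows with few CpGs and few calls. The start of Sema3a (chr5:13124822-13603485), with 19 CpGs and 241 to 613 calls, read 50.1, 67.9, 43.4, 31.1 and 59.1% in Control and 61.8, 57.1, 70.9 and 58.7% in Susceptible libraries, a difference of 11.8 points (unadjusted p = 0.167) that was 7.02 points without Control 5. Ntng1 (chr3:109780050-110149972) read 88.8, 82.9, 89.6, 50.5 and 86.0% in Control and 88.3, 88.5, 88.1 and 88.2% in Susceptible libraries. Control 5 lay apart at 50.5%, and the difference of 8.69 points (unadjusted p = 0.447) was 1.44 points without it. Fewer than 3 CpGs of the Ntng1 window were listed in all 9 libraries, so the libraries were read partly on different CpGs. Robo2 (chr16:73891976-75447443) read 10.1, 19.1, 24.7, 34.1 and 13.3% against 14.7, 16.6, 13.5 and 7.39%, a difference of -7.21 points (unadjusted p = 0.147) that was -3.75 points without Control 5. The groups overlapped in all 3 genes. In the quasi-binomial fit the unadjusted p of Robo2 was 0.00432 with windows of 2000 bp (adjusted p = 0.987) and 0.339 with windows of 500 bp. For Sema3a it was 0.0486 over CpGs listed in all 9 libraries (adjusted p = 0.859) and 0.29 with windows of 2000 bp. Ephb6, an Eph receptor without kinase activity, also had a wide range, 2.81 to 33.4%, with Control 5 at 14% and Control 8 at 33.4% and the other libraries at 6.14% or less. The listed starts of the 3 genes with the largest differences are printed to show how unlike their sequences are. Those of Sema3a and Ntng1 lie 271962 and 6500 bp inside the outer end, outside the windows just described, and that of Robo2 lies 150 bp inside.
Sema3a: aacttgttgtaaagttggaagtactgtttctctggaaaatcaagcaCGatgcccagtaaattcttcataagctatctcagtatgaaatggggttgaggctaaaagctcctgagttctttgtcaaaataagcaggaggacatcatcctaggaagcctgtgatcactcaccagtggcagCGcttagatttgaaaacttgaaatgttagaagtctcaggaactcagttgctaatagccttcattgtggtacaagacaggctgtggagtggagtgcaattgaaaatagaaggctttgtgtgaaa
Ntng1: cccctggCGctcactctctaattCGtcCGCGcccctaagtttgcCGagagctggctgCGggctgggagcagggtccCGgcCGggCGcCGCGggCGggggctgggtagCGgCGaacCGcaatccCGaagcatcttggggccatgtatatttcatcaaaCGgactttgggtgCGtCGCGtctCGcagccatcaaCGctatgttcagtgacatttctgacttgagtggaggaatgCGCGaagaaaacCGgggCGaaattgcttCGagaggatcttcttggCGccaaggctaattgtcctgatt
Robo2: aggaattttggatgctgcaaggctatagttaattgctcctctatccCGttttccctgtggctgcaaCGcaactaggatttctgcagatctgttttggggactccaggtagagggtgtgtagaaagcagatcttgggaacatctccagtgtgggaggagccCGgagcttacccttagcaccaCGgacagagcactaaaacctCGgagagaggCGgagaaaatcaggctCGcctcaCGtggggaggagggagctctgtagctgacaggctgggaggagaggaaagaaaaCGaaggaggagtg
The Sema3a sequence (chr5:13396534-13396833, plus strand) has 2 CGs and read 93.0%, on 23 to 58 calls. The Ntng1 sequence (chr3:110143423-110143722, minus strand) has 28 CGs and read 1.34% in the 8 libraries with calls there. The Robo2 sequence (chr16:75447244-75447543, minus strand) has 9 CGs and read 0.467%, below the 17.1% of the wider start window.

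The widest body differences were in Efna2 (60.2% ± 4.58 in Control, 55.8% ± 2.30 in Susceptible, -4.43 points, unadjusted p = 0.0534), Sema7a (52.2% ± 5.03 and 55.7% ± 5.30, 3.50 points, unadjusted p = 0.154) and Efna4 (63.7% ± 5.96 and 60.5% ± 4.07, -3.19 points, unadjusted p = 0.330). Efna2 and Efna4 are ephrins of the A type, and Sema7a is the lipid-anchored semaphorin. Their groups overlapped, and single libraries moved the values: with 1 library left out, Efna2 differed by between -2.8 (without Control 8) and -5.32 points (without Control 5), Sema7a by between 2.02 (without Control 8) and 5.77 points (without Susceptible 7), and Efna4 by between -1.38 (without Control 5) and -4.77 points (without Control 2). In the quasi-binomial fit of bodies without the start window, the unadjusted p was 0.52 for Efna2, 0.0703 for Sema7a and 0.761 for Efna4. For Efna2 it was 0.32 with the most covered 1% of CpGs left out. It was 0.0423 for Efna2 over CpGs listed in all 9 libraries and 0.0394 with a minimum of 20 calls. Each body was also split into 10 equal parts. In the part at the 5′ end, guidance genes read 41.5% in Control and 39.9% in Susceptible libraries, a difference of -1.57 points, where all genes differed by -0.978 points. Control 5 read 44.5% in that part and the other Control libraries 39.6 to 42.6%, against 38.7 to 40.9% in the Susceptible ones. In the other 9 parts the difference lay between -0.534 and 0.121 points.

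**Figure D5:**
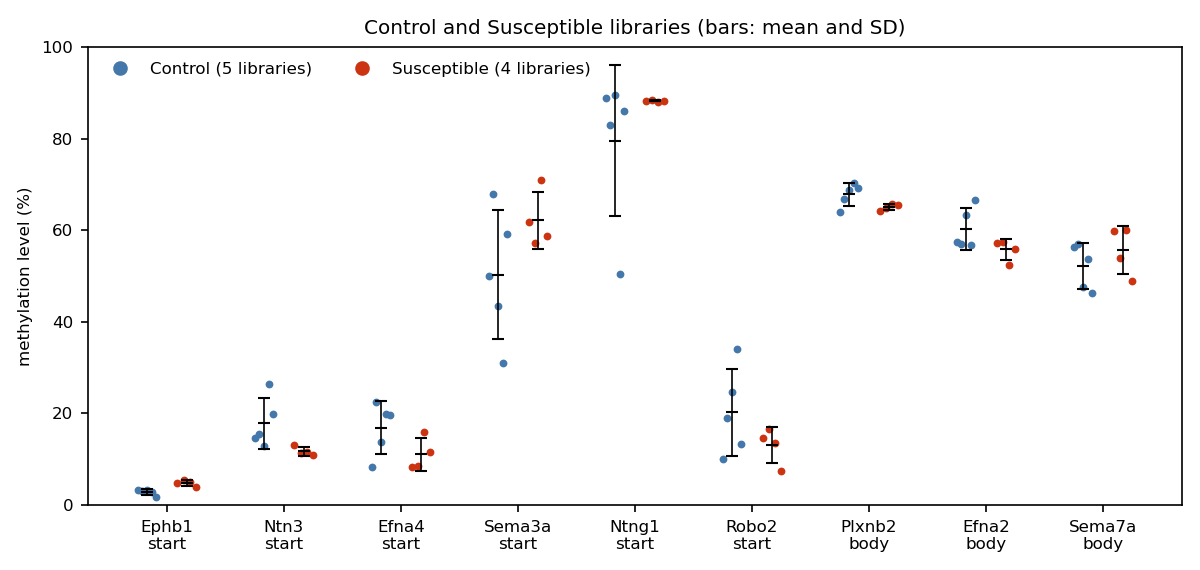
Methylation level (%, vertical axis) of the guidance genes with the smallest unadjusted p or the largest group differences, 1 point per library, with group mean and SD as bars. Only at the start of Ephb1 do the 5 Control and 4 Susceptible libraries not overlap. Control 5 lies apart at Ntng1, at 50.5%.

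Within the genes, 5479 tiles of 1 kb were tested. An unadjusted p under 0.05 was found in 272 (4.96%), where 4.37% of 1033962 autosomal tiles passed, and the groups did not overlap in 74 (1.35%), where 1.56% of all tiles did not. The smallest adjusted p was 0.997 among tiles of guidance genes and 0.103 among all tiles, so none was called in this fit. Of the 272, 153 were higher and 119 lower in Susceptible libraries, and over all tiles 22547 were higher and 22666 lower. Of the 74 without overlap, 33 were higher and 41 lower, and over all tiles without overlap 6177 were higher and 9909 lower. Without Susceptible 6 the 272 became 173, where 2.83% of all tiles passed.

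The 5 tiles of smallest unadjusted p lay in 5 genes of different families. In Slit1, 132 kb from the outer start (chr19:41615001-41616000), Control libraries read 93.0% ± 2.45 and Susceptible ones 83.1% ± 1.41, with no overlap (89.5 to 96.4% against 81.0 to 84.2%), at an unadjusted p of 0.000158. In Sema7a, 1.91 kb from the start (chr9:57941001-57942000), it was 23.4% ± 5.26 and 38.3% ± 9.33 with overlap, at an unadjusted p of 0.000336. In Ntn1 (chr11:68371001-68372000), 15.3 kb from the start, it was 68.9% ± 6.19 and 84.0% ± 3.11. In Efna5 (chr17:62805001-62806000) it was 80.0% ± 3.39 and 87.8% ± 2.35, and in Dcc (chr18:72298001-72299000) 77.5% ± 3.75 and 91.5% ± 2.17. In these last 3 tiles the Susceptible libraries lay above all Control libraries. All 5 had an adjusted p of 0.997.

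A list of 61 other guidance genes, made of co-receptors such as Nrp1 and signalling partners such as the collapsin response mediators, was measured in the same way. Their median start level was 5.85% and their median body level 67.7%. At an unadjusted p under 0.05, 1 was higher and 2 were lower in Susceptible libraries at the start (4.92%, against 4.90% of all genes), and 3 were higher and 2 lower in the body (8.20%, against 4.98%), with 0 of 61 past the adjusted threshold at either. The groups did not overlap in 1 start (1.64%, against 2.0% of all genes), that of the adhesion molecule Chl1, at 13.2% ± 2.38 in Control libraries and 8.58% ± 1.79 in Susceptible ones (unadjusted p = 0.0153, adjusted p = 0.927 in the quasi-binomial fit).

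Technical spread and tissue makeup were read beside these values. Control 5 and Control 8, which had the 2 lowest numbers of listed cytosines, were farthest from the median of the 9 libraries in 22 and 16 of 66 guidance starts (33.3 and 24.2%, against 31.5 and 24.6% of all starts). In bodies, Susceptible 7 and Control 5 were farthest in 20 and 17 of 67 (29.9 and 25.4%), against 17.7 and 28.7% over all bodies. Without Control 5 and Control 8, 4 of 66 guidance starts and 3 of 67 bodies had an unadjusted p under 0.05, where 5.91% of all starts and 4.80% of all bodies passed. Summed start levels of cell type marker lists overlapped between the groups: 8.20 to 9.57% in Control and 9.20 to 9.53% in Susceptible libraries for 11 of 12 neuron genes, 6.56 to 8.45% and 7.43 to 8.19% for 12 striatal projection neuron genes, and 19.4 to 22.7% and 17.4 to 20.6% for 11 of 12 oligodendrocyte genes. Astrocyte genes (10) read 22.6 to 33.2% and 17.4 to 26.1%, microglia genes (10) 56.7 to 67.8% and 59.5 to 62.1%, and endothelial genes (8) 28.3 to 34.6% and 27.4 to 32.5%. In the bodies of these lists the groups overlapped too, but single libraries stood apart. Striatal projection neuron bodies read 70.9% in Susceptible 6 and 71.8% in Susceptible 7, against 63.4 to 63.5% in the other Susceptible and 62.2 to 65.9% in the Control libraries. Astrocyte bodies read 66.2% in Susceptible 7 and 72.1 to 74.7% in the rest. The part of cell makeup in the values above was not tested.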

How the data were processed

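Whole-genome bisulfite libraries (Pico Methyl-seq, per the labels' protocols) of 9 nucleus accumbens samples, 5 Control and 4 Susceptible, were analysed, and p-values measure the spread between these samples. Per the submitters' processing notes, Bismark, Bowtie and Picard were used with build mm10; the sources used here give no versions or settings. Per the file headers, the authors deposited for each cytosine the count of calls (coverage) and the percent read as C and as T. Each listed cytosine has at least 10 calls, so totals (313475624 to 570984634 per library) are not the full depth, and calls are not independent molecules.

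Methylated calls were count times percent, and the strands of a CpG were added. Gene bounds, without exons, came from RefSeq (GRCm38.p6), strands and sequences from its promoter table, where all 308365 listed CpGs fell on a CG (100%). Strand gave the start of 57 members, and the CpG-richer gene end stood in for the other 10 (in genes with strand, it is the start in 80.5%). Windows were 1000 bp to each side, tiles 1000 bp.

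Groups were compared by a quasi-binomial logistic model with Pearson dispersion moderated by limma's squeezeVar formulas and kept at 1 or more, an F test, and Benjamini-Hochberg adjustment over all features with a minimum of 3 CpGs and 20 calls per library; calls needed an adjusted p under 0.05. It was tested on simulated data, and the alternative fit on logit levels was compared with limma 3.58.1 (Python 3.11.15, numpy 2.4.6, scipy 1.17.1). Alternatives changed the model, coverage, filter, window, start and libraries. Named genes were the highest and lowest of each family, those with a start at 20% or more, an unadjusted p under 0.05 or no overlap, the 3 largest differences and ranges, and 5 tiles. Epha5 and the Ephb1 sequence, leaving out Control 5 and Control 8 or the genes without strand, and leaving Unc5cl out of the sum of Unc5 and Dcc, were chosen after seeing the data. Members and lists were chosen with earlier results of these data known. X-linked genes were not analysed here.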

Additional observations from a re-analysis of the deposited data

Results flagged for a closer look

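In 3 of 70 sets of group values looked at, 1 library stood apart from the rest of its group, and chance flags about 1 in 20 groups. The start of Ntng1 read 50.5% in Control 5 and 82.9 to 89.6% in the other Control libraries. Fewer than 3 CpGs of that window were listed in all 9 libraries, so these values rest partly on different CpGs. The ephrin bodies together read 62.0% in Control 2 and 63.2 to 63.5% in the others, and the Robo bodies read 83.0% in Susceptible 6 and 80.3 to 80.7% in the others. The cause was not tested.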

How the results depend on the processing

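No gene was called at the start or in the body under any alternative run. The 3 guidance starts at an unadjusted p under 0.05 became 1 with no moderation of the dispersion (5.29% of all genes). They became 5 with CpGs listed in all 9 libraries (5.59% of all genes) and 5 with windows of 500 bp (5.21%). With each library left out in turn they were 2 to 3, where 3.66 to 6.18% of all genes passed. The 1 guidance body became 0 with limma on logit levels, with no moderation, with the replicate block or without the start window, 2 with CpGs listed in all 9 libraries or the most covered 1% left out, 4 with a minimum of 20 calls (6.09% of all genes), and 0 to 3 with each library left out (3 without Control 2, where 6.17% of all genes passed, 0 without Control 4, Control 8 or Susceptible 3, 2 without Control 3, Control 5, Susceptible 6 or Susceptible 7); without both Control 5 and Control 8 it was 3. Over these body fits, 3.99% (without the start window) to 6.17% (without Control 2) of all genes passed. The 272 guidance tiles of 5479 became 158 with limma, where 3.24% of all tiles passed. They became 128 of 2436 with a minimum of 20 calls (4.71% of all tiles). With a filter of 1 CpG and 10 calls they became 471 of 9241 (4.67% of all tiles). With each library left out they were 173 to 350, where 2.83 to 5.36% of all tiles passed.

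The ligand to receptor difference at the start moved from 8.28 to 12.2 points with genes weighted equally, 9.99 with CpGs listed in all 9 libraries, 10.3 with windows of 2000 bp, 9.15 with starts as the promoter table lists them, 9.43 without membrane-bound semaphorins of classes 4 to 6 and 5.06 without the 10 genes that have no strand. In the body it moved from -2.68 to -6.14 with equal weight and -2.25 without those semaphorins. The sign held in each. The replicate numbers 2 and 3 occur in both groups, and the labels do not say what the numbers stand for. Deviations of same-numbered libraries had correlations of 0.0157 and -0.00437, which cannot tell whether those libraries were handled together. The group term of the fit with the replicate block rests only on libraries 2 and 3 of each group. With that block, 4 guidance starts, 0 bodies and 238 tiles had an unadjusted p under 0.05. In the same fit 5.66, 4.76 and 4.78% of all starts, bodies and tiles passed. The difference of all guidance starts between the groups, over libraries 2 and 3 alone, was -0.00468 points. The causes were not tested.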

Other observations

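At the promoter-table start of Epha5, an Eph receptor for A-type ephrins, 436 bp inside the outer end, Control libraries read 1.79% ± 0.184 (n = 5) and Susceptible libraries 2.97% ± 0.128 (n = 4), a difference of 1.18 points. This was noticed among 73 listed starts, and its unadjusted p of 0.0248 became 0.932 after Benjamini-Hochberg adjustment in the quasi-binomial fit over all genes. In the window around the outer start of Epha5, which also touches the gene Gm42163, the unadjusted p was 0.808. With windows of 500 bp there it was 0.0237 (adjusted p = 0.884), and without Control 5 and Control 8 it was 0.0338 (adjusted p = 0.842). Both belong to windows around the outer start, not the promoter-table start. The p-values carry no direction, so they are not read as repeating the difference of 1.18 points.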
